A study of Rattus norvegicus with 6 samples.

Results

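The genes described here are the serpins, the family of serine protease inhibitors, in a basal and a non-basal cell fraction of the rat epididymis. Members were the probe sets with exactly 1 gene symbol whose symbol is Serpin, a clade letter from a to i, and a number. The rule found 46 genes of the 18166 genes measured, and each had 1 probe set. Clade A held 18 of them and clade B 18, clades E, F and I held 2 each, and clades C, D, G and H held 1 each. All 46 passed into the test, because dim ones were kept.

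Both fractions came from the epididymis, the duct in which sperm mature, of Sprague-Dawley rats at 48 days of age. A magnetic separation gave the basal fraction, named for the small epithelial cells on the basement membrane of the duct, and the non-basal fraction, which holds the rest. Total RNA of each fraction was measured on 3 Affymetrix RaGene 2.0 ST arrays. The labels give no treatment or genetic change for either fraction, name 3 rats, do not say which rat gave which array, and name no surface molecule for the separation. The p-values therefore measure the spread between these arrays, which may be technical. Values are on the log2 scale, so a difference of 1 is 2-fold.

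A serpin exposes a flexible loop that acts as bait for a protease. When the protease cuts the loop, the serpin snaps into a new shape and traps the enzyme in a covalent complex, so that each inhibitor molecule is spent once. Some members have lost this activity and serve as hormone carriers, as chaperones or in other roles. Clade A members are mostly secreted, clade B members mostly stay inside the cell, and the smaller clades include inhibitors of clotting, fibrinolysis and complement.

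The arrays bore out the fraction names for basal cells but showed a mixed non-basal fraction, and the basal fraction also gave signal of other epithelial cell types. All 14 measured basal epithelial markers were higher in the basal fraction, and 11 of 11 fibroblast, 9 of 10 endothelial, 7 of 9 smooth muscle and pericyte, and 6 of 12 T and NK cell markers were lower. Over all genes 7.71% were higher and 7.14% lower. None of 11 principal cell markers passed the limma test, though 3 had an unadjusted p under 0.05, and for 8 narrow and clear cell markers both counts were 0. The 11 principal cell markers had basal means from 8.41 (Cst8) to 13.53 (Lcn5), while array medians were at most 6.703. Basal replicate 3 had the least negative mean deviation of the fibroblast markers among basal arrays, at -0.866 against -2.58 and -2.11, and the highest of the principal cell markers, at 0.347. Without non-basal array 1, 10 T and NK cell markers were lower in place of 6, and among 14 markers of macrophages and dendritic cells 8 in place of 2. Without basal array 3, 6 principal cell markers were lower. Only 5 fibroblast markers were lower without basal array 2, non-basal array 2 or non-basal array 3. Fewer cells of a type and less RNA per cell cannot be told apart in such fractions.

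**Figure D1:**
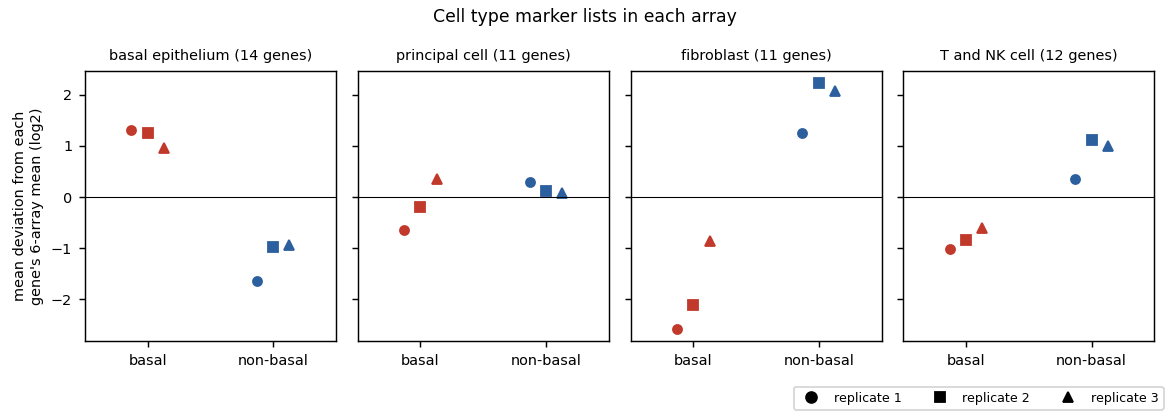
Mean deviation of 4 marker lists from each gene's mean over the 6 arrays (log2 scale, vertical axis) in the 3 basal and 3 non-basal arrays; symbols mark replicate numbers. Basal epithelial markers are high and fibroblast markers low in all 3 basal arrays, while principal cell markers overlap between the fractions.

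Most serpins were not called different between the fractions, and a few differed widely in both directions. Serpinb5 and Serpinb1a were higher in the basal fraction. Serping1, Serpinf1, Serpinb9, Serpina1fl2 and Serpina3c were lower. With limma and Benjamini-Hochberg adjustment over all genes, 2 of 46 members were higher, where 7.71% of all genes were, and 5 were lower, where 7.14% were. Together 7 members were called, or 15.2%, beside 14.9% of all genes. The share of serpins called thus lay close to the background of this comparison. Differences of at least 2-fold were called for 4 members, beside 5.84% of all genes. The median log2 difference of the 46 members was -0.01, beside 0.00343 over all genes. The fractions did not overlap for 13 members, or 28.3%, beside 32.9% of all genes. Differences under 0.5 on the log2 scale were found for 35 of 46 members, beside 15031 of all 18166 genes.

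**Figure D2:**
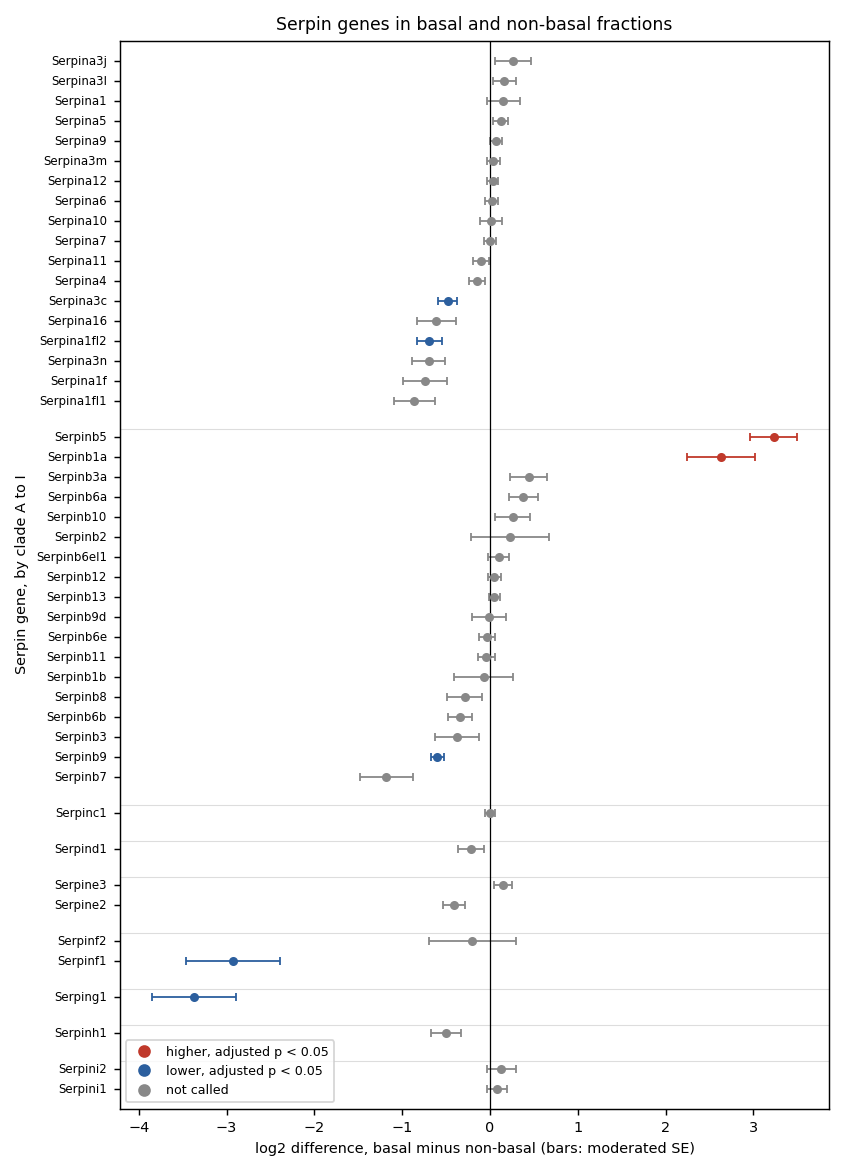
Log2 difference, basal minus non-basal, of each of the 46 serpin genes (horizontal axis), ordered by clade; bars are moderated standard errors from limma. Serpinb5 and Serpinb1a stand far to the right, Serpinf1 and Serping1 far to the left, and 35 genes lie within 0.5 of 0.

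Clade B, the clade of mostly intracellular serpins, held both genes that were higher. Of its 18 members 2 were higher, 1 was lower and 15 were not called. Clade B thus had 16.7% called, close to the 14.9% of all genes. Its median log2 difference was 0.02, with a range from -1.18 to 3.23. In the RefSeq gene table its members lie in 2 clusters on different chromosomes, a cluster of 10 genes around Serpinb5 and a cluster of 8 genes around Serpinb1a. Each cluster held 1 gene that was higher, and its other members differed by at most 1.18 in the first and 0.60 in the second.

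Serpinb5 encodes maspin, a serpin without protease inhibitory activity that is known from basal and myoepithelial cells. Its log2 values were 11.47, 11.58 and 10.71 in basal arrays 1, 2 and 3 against 7.67, 8.16 and 8.23 in the non-basal arrays, listed in that order here and throughout. The lowest basal array lay more than 2 log2 units above the highest non-basal array, and basal array 3 was the lowest of the basal arrays. The means were 11.25 ± 0.47 (SD, n = 3) and 8.02 ± 0.303 (SD, n = 3). The difference was 3.23 ± 0.268 (SE; limma adjusted p = 0.00237), or 9.41-fold. With any 1 array left out the gene was still called, with differences from 3.06 to 3.50 and adjusted p of at most 0.023.

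Serpinb1a encodes a leukocyte elastase inhibitor, which blocks the neutrophil proteases elastase, cathepsin G and proteinase 3. Log2 values of Serpinb1a were 11.17, 11.24 and 10.50 in the basal arrays and 7.53, 8.78 and 8.71 in the non-basal arrays. The fractions did not overlap, and non-basal array 1 was the lowest of all arrays. The difference was 2.63 ± 0.385 (SE; limma adjusted p = 0.00885), or 6.19-fold. The call was lost without basal array 1 (adjusted p = 0.0511) and without basal array 2 (adjusted p = 0.055), while the difference stayed at 2.53 and 2.50. Of 11 mast cell and neutrophil markers none was called by limma, and 5 had an unadjusted p under 0.05. Their summed log2 level was 63.79, 63.4 and 64.38 in basal and 64.38, 68.7 and 68.49 in non-basal arrays. Of these 5, Kit, Tpsb2, Hdc and Cpa3 had negative differences, at -0.34, -0.57, -0.69 and -2.14. The neutrophil gene S100a9 alone was positive among them, at 0.31 ± 0.105 (adjusted p = 0.108). S100a9 was called higher without basal array 3 (adjusted p = 0.0297). Of all 11 markers 4 had a positive difference. The 14 summed log2 values of the basal epithelial list ran from 137.5 to 142.67 in basal and from 101.3 to 111.16 in non-basal arrays, and non-basal array 1 had the lowest sum. The part of either list's cells in these differences was not tested.

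The start regions of the called genes are shown because they let the 2 genes that were higher be set beside genes that were lower. They cover 250 bases before to 50 bases after the annotated start and come from RefSeq for GRCr8, whose table of start regions held 37 of the 46 members and, among the called ones, the 4 shown. Positions are counted from the start site as 0, and capitals mark letters that matched a searched motif on either strand.
Serpinb5 (chr13:23499953-23500252, + strand): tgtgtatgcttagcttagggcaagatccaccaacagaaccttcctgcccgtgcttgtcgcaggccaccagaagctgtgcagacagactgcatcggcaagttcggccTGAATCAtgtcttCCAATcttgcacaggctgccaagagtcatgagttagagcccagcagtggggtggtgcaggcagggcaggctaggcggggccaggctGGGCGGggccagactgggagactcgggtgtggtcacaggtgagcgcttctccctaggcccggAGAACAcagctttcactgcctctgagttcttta
Serpinb1a (chr17:31799196-31799495, + strand): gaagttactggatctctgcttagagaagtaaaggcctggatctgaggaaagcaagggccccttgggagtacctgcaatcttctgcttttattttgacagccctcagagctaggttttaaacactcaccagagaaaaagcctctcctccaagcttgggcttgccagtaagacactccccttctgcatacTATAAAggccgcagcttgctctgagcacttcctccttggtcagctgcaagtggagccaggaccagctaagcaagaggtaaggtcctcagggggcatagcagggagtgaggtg
Serpinb9 (chr17:31640767-31641066, - strand): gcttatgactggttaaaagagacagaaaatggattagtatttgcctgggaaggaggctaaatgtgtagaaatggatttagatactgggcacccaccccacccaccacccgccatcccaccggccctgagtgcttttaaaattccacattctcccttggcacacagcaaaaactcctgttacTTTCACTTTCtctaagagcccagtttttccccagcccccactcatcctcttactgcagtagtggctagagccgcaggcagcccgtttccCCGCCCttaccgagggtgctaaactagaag
Serpinf1 (chr10:60760849-60761148, - strand): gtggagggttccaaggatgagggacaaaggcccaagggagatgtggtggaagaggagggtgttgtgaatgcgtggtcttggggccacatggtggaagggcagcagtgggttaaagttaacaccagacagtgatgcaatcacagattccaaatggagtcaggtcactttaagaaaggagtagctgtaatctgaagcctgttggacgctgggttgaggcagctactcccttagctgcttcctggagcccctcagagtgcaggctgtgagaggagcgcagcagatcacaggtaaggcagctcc

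Of the 6 motifs searched, Serpinb5 and Serpinb1a shared none in this window. Serpinb5 held TGANTCA, the AP-1 letters, at -144, the CCAAT box CCAAT at -131, the GC box GGGCGG at -45, and the steroid receptor half-site AGAACA at 17. Serpinb1a held the TATA box letters TATAAA at -62. Serpinb9 held the interferon response motif at -69 and the GC box at 20. For Serpinf1 none of the 6 was found. Over 33469 start regions of the same length, 7.33% held TGANTCA, 37.5% CCAAT, 33.1% GGGCGG, 20.7% AGAACA, 14.2% TATAAA and 3.92% the interferon response motif. Among the 37 serpins with an entry the numbers were 4, 13, 8, 7, 7 and 2. A serpin was counted if any of its regions matched, whereas the percentages are per region, so the units differ. A match is a description of the letters and no measure of binding.

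Serpinb9, an intracellular inhibitor of granzyme B that shields cells from their own cytotoxic granules, was lower in the basal fraction by a small and even margin. Serpinb9 had log2 values of 10.90, 10.80 and 10.83 in basal and 11.53, 11.42 and 11.37 in non-basal arrays. Within each fraction the arrays lay within 0.2 of each other, and the fractions did not overlap. The difference was -0.60 ± 0.0711 (SE; limma adjusted p = 0.0049), with adjusted p of at most 0.032 when any 1 array was left out. Gzmb, the gene of its target protease, was lower at -1.61 ± 0.319 (adjusted p = 0.0233). That call was lost without basal array 1, basal array 2, non-basal array 2 or non-basal array 3, with an adjusted p of up to 0.108. The summed log2 level of the 12 T and NK cell markers was 69.15, 71.33 and 74.12 in basal and 85.65, 94.82 and 93.33 in non-basal arrays. This sum was lowest in array 1 of each fraction, where Serpinb9 was highest. The part of T and NK cells in the Serpinb9 difference was not tested.

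Serpinb7, or megsin, had the largest difference among the genes that were not called. Its log2 values were 4.87, 4.99 and 4.16 in basal and 5.39, 6.30 and 5.86 in non-basal arrays. The fractions did not overlap, but the arrays of each spread by 0.8 or more. The difference was -1.18 ± 0.305 (SE; limma adjusted p = 0.0537), and it was called only when non-basal array 1 was left out among the 6 fits without 1 array (adjusted p = 0.0396). It was also called after quantile normalization, median centring, the filter at a mean of 5 and array weighting, and without basal array 3 and non-basal array 1 together.

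The remaining clade B genes were not called. Serpinb6a, a cathepsin G inhibitor, had values of 9.5, 9.36 and 8.90 in basal and 8.92, 8.79 and 8.91 in non-basal arrays. Basal replicate 3 lay within the non-basal range, and without it the difference was 0.56 in place of 0.38 (limma adjusted p = 0.0136 in place of 0.185). Serpinb2, known as plasminogen activator inhibitor type 2, read 7.45 in basal array 3 and 5.91 and 5.93 in the other basal arrays, against 5.85 to 6.5 in non-basal arrays. Its difference of 0.23 ± 0.446 turned to -0.28 without basal array 3. Serpinb3 and Serpinb3a, of the squamous cell carcinoma antigen group that blocks lysosomal cysteine proteases, differed by -0.38 ± 0.25 and 0.44 ± 0.212. Serpinb8, a furin inhibitor, differed by -0.29 ± 0.203, Serpinb6b by -0.34 ± 0.141 and Serpinb10 by 0.26 ± 0.198. Serpinb1b, Serpinb6e, Serpinb6el1, Serpinb9d, Serpinb11, Serpinb12 and Serpinb13 had differences from -0.07 to 0.10. Serpinb1b, the named relative of Serpinb1a, read 4.77, 4.95 and 3.68 in basal and 4.45, 4.45 and 4.70 in non-basal arrays and overlapped between fractions. Its means of 4.47 and 4.53 were dim, where differences are compressed. It therefore cannot be set against the large difference of Serpinb1a. Several of these clade B genes have close copies, so signal may be shared between their probe sets.

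Serping1 and Serpinf1, both secreted, had the most negative differences of the family. Serping1 encodes C1 inhibitor, which blocks the complement proteases C1r and C1s and plasma kallikrein. The log2 values of Serping1 were 7.13, 7.84 and 8.80 in basal and 10.64, 11.66 and 11.59 in non-basal arrays. Every basal array lay below every non-basal array, with basal array 3 nearest to the non-basal arrays. The means were 7.92 ± 0.84 (SD, n = 3) and 11.30 ± 0.568 (SD, n = 3), and the difference was -3.37 ± 0.48 (SE; limma adjusted p = 0.00809), or 10.4-fold lower. Leaving out 1 array gave differences from -3.81 to -2.98, and the call was lost without basal array 2 (adjusted p = 0.0515) and non-basal array 3 (adjusted p = 0.0536).

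The genes of the complement proteases C1r and C1s were lower as well. C1s read 6.94, 7.26 and 8.60 in basal and 10.19, 11.38 and 11.26 in non-basal arrays, a difference of -3.34 ± 0.518 (limma adjusted p = 0.0107). C1r differed by -1.78 ± 0.296 (adjusted p = 0.0135). Basal replicate 3 had the highest basal value of both genes, as it had for Serping1. The C1s call was lost without basal array 2, non-basal array 2 or non-basal array 3 (adjusted p of up to 0.0645). That of C1r was lost without the same arrays or basal array 1 (up to 0.0738). The other proteases and components of the list did not pass, among them Masp1, a protease of the lectin pathway, at -0.42 ± 0.14 (adjusted p = 0.106) and C3, the central complement protein, at 0.87 ± 0.308 (adjusted p = 0.124). Klkb1, plasma kallikrein, overlapped between the fractions at -0.28 ± 0.132 (adjusted p = 0.211). In all, 2 of 8 measured genes of C1 and the lectin pathway were lower and 0 were higher, with a median of -0.45. That was 25% called, beside 14.9% of all genes. Of these 8 genes 2 also stand in the macrophage list. Without non-basal array 1, 5 of the 8 were lower, and 0 were without basal array 2, non-basal array 2 or non-basal array 3.

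Serpinf1 encodes pigment epithelium-derived factor, a secreted serpin without protease inhibitory activity that restrains blood vessel growth. Log2 values of Serpinf1 were 9, 9.67 and 11 in basal and 12.24, 13.19 and 13.02 in non-basal arrays. The basal arrays spread widely, with basal array 3 the highest, and the fractions still did not overlap. The difference was -2.93 ± 0.537 (SE; limma adjusted p = 0.0182), or 7.63-fold lower. Of 6 fits that each left out an array, 2 kept the call. It was lost without basal array 1 (adjusted p = 0.0596), basal array 2 (0.0897), non-basal array 2 (0.0782) or non-basal array 3 (0.0917), and without basal array 3 the difference was -3.49.

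The summed levels of 3 marker lists, those of fibroblasts, of smooth muscle and pericytes, and of T and NK cells, shared features of array order with Serping1 and Serpinf1. The fibroblast markers' summed log2 level over 11 genes was 79.13, 84.26 and 97.97 in the basal arrays against 121.36, 132.01 and 130.21 in the non-basal ones. That of 9 smooth muscle and pericyte markers was 73.34, 74.16 and 79.78 against 91.71, 93.54 and 93.04, and the T and NK cell sums were given with Serpinb9. In both serpins and these 3 lists basal array 1 was the lowest and basal array 3 the highest basal array, and non-basal array 1 was the lowest non-basal array. These features also held for 8 mesothelium and hepatocyte markers, whose sums overlapped between the fractions. They were 55.32, 55.73 and 58.9 in basal and 56.47, 58.82 and 58.86 in non-basal arrays. The plasminogen, leukocyte granule, lysosomal and collagen folding lists described below shared these features too. The endothelial sums did not, at 70.57, 69.56 and 73.57 in basal and 87.08, 85.33 and 86.05 in non-basal arrays. Nor did the macrophage and dendritic cell sums, at 110.51, 116.2 and 109.79 against 111.77, 128.4 and 126.43. The part of any listed cell type in the differences of both serpins was not tested.

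Serpinf2, the adjacent gene on the chromosome, encodes alpha-2-antiplasmin, the main inhibitor of plasmin, and had no such difference. Its log2 values were 8.23, 9.10 and 10.20 in basal and 9.78, 9.14 and 9.22 in non-basal arrays. Basal replicate 3 was the highest and basal array 1 the lowest of all 6 arrays. The difference was -0.20 ± 0.494 (limma adjusted p = 0.812), turned to 0.27 without basal array 1 and was -0.71 without basal array 3.

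**Figure D3:**
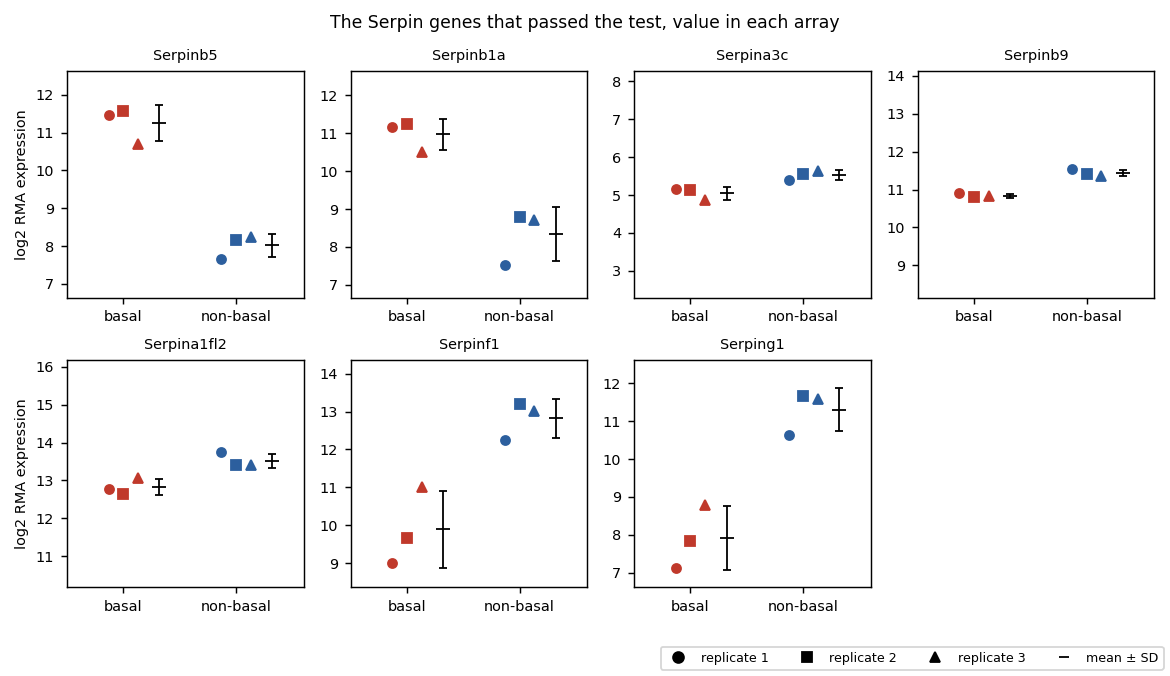
Log2 expression in each array of the 7 serpin genes that passed the test, basal arrays left and non-basal arrays right in each panel; symbols mark replicate numbers, and black marks give the mean and SD of 3 arrays. All panels span the same number of log2 units, each centred on its own gene, and in none do the fractions overlap.

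Clade A, the clade of alpha-1-antitrypsin and of hormone carriers, held no called difference of 2-fold or more. Of its 18 members 0 were higher, 2 were lower and 16 were not called, so 11.1% were called, beside 14.9% of all genes. The members had a median log2 difference of 0.01 and a range from -0.86 to 0.26. By RefSeq gene order, 17 of them lie in 1 cluster, and Serpina7 lies elsewhere. Within that cluster Serpina1f, Serpina1fl1, Serpina1fl2 and Serpina16 had negative differences of similar size. They are neighbours in the cluster and include close copies, so signal may be shared between their probe sets.

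Serpina1fl2 passed the test. The log2 values of Serpina1fl2 were 12.78, 12.65 and 13.07 in basal and 13.74, 13.42 and 13.41 in non-basal arrays, without overlap. The difference was -0.69 ± 0.143 (SE; limma adjusted p = 0.0269), or 1.62-fold lower. Only without basal array 3, of the 6 fits with 1 array left out, was it still called (adjusted p = 0.0165). The adjusted p was 0.107 without basal array 1, 0.103 without basal array 2, 0.0506 without non-basal array 1, 0.0738 without non-basal array 2 and 0.0821 without non-basal array 3.

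Its neighbours did not pass. Serpina1fl1 read 11.44, 11.36 and 11.59 in basal and 12.85, 11.99 and 12.14 in non-basal arrays, a difference of -0.86 ± 0.229 (limma adjusted p = 0.0582). Non-basal array 1 stood above all others, and without it the difference was -0.60 with an adjusted p of 0.0198. Serpina1f read 11.85, 11.93 and 12.56 in basal and 13.23, 12.53 and 12.79 in non-basal arrays, a difference of -0.74 ± 0.254 (adjusted p = 0.114). Here basal array 3 lay within the non-basal range, and without it the adjusted p was 0.0438. Serpina16 read 12.59, 12.28 and 12.72 in basal and 13.58, 12.84 and 13.01 in non-basal arrays, a difference of -0.61 ± 0.22 (adjusted p = 0.128). In all 4 genes basal array 3 was the highest basal array and non-basal array 1 the highest of all. The summed log2 level of the 11 principal cell markers, 116.11, 121.1 and 127.03 in basal and 126.55, 124.42 and 124.07 in non-basal arrays, also peaked in basal array 3 among basal and in non-basal array 1 among non-basal arrays, with basal array 3 the highest of all. That of 8 narrow and clear cell markers was 69.78, 69.34 and 71.93 in basal and 74.85, 69.95 and 70.94 in non-basal arrays, so non-basal array 1 was the highest of all. The part of either list in these differences was not tested.

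**Figure D4:**
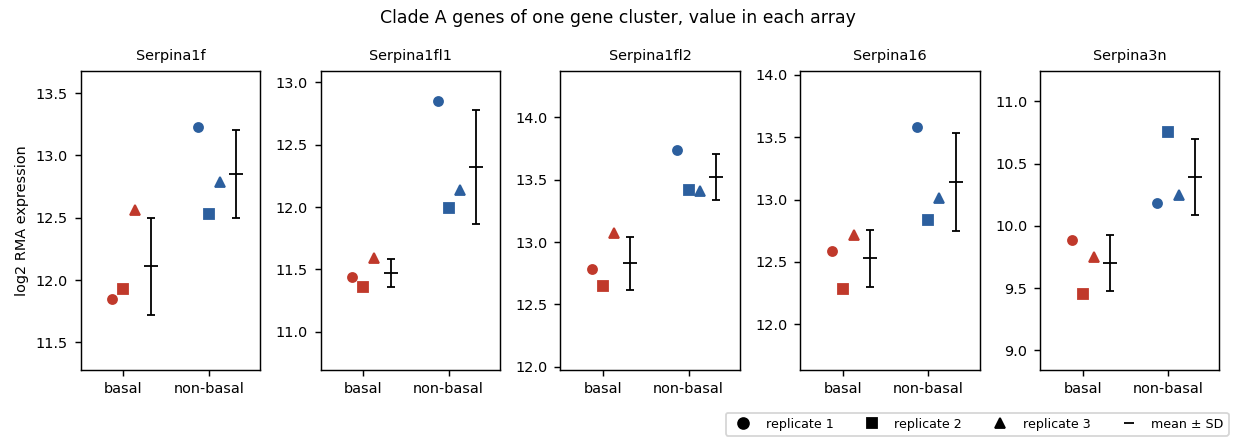
Log2 expression in each array of 5 clade A serpins of the same gene cluster, basal arrays left and non-basal arrays right; symbols mark replicate numbers, and black marks give the mean and SD of 3 arrays. In the 4 panels on the left, basal array 3 is the highest basal array and non-basal array 1 the highest of all, which is not so for Serpina3n.

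Serpina3n, an acute phase serpin related to antichymotrypsin, read 9.89, 9.45 and 9.75 in basal and 10.18, 10.75 and 10.25 in non-basal arrays. The fractions did not overlap, and the order of arrays differed from that of the 4 genes above. The difference was -0.70 ± 0.187 (SE; limma adjusted p = 0.0593). Serpina3c, known in the rat as a kallikrein-binding protein, was lower at -0.48 ± 0.11 (adjusted p = 0.0367). Its values were 5.15, 5.12 and 4.86 in basal and 5.39, 5.56 and 5.63 in non-basal arrays, so the fractions were parted by a narrow gap. The call was lost without basal array 1 (adjusted p = 0.081), basal array 2 (0.0983), non-basal array 2 (0.121) or non-basal array 3 (0.134).

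The classical plasma serpins of clade A showed no called difference. Serpina1, or alpha-1-antitrypsin, the main inhibitor of neutrophil elastase, differed by 0.15 ± 0.188 (limma adjusted p = 0.626). Serpina5, the protein C inhibitor, which also blocks the sperm protease acrosin, differed by 0.12 ± 0.0821 (adjusted p = 0.394). The hormone carriers Serpina6, which binds corticosteroids, and Serpina7, which binds thyroxine, differed by 0.02 ± 0.0771 and 0.00 ± 0.069. Serpina4, or kallistatin, differed by -0.15 and Serpina12, or vaspin, by 0.03. Serpina3j, Serpina3l, Serpina3m, Serpina9, Serpina10 and Serpina11 had differences from -0.10 to 0.26.

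The serpins of clotting and fibrinolysis outside clade A did not pass either. Serpinc1, or antithrombin, was listed at 5.86 in all 6 arrays, so no spread was measured for it. Serpind1, or heparin cofactor II, a thrombin inhibitor, read 5.86, 5.87 and 5.53 in basal and 6.23, 5.84 and 5.86 in non-basal arrays, a difference of -0.22 ± 0.148 (limma adjusted p = 0.368). Serpine2, or protease nexin-1, which blocks thrombin and the plasminogen activators, read 7.45, 7.36 and 7.09 in basal and 7.51, 7.77 and 7.83 in non-basal arrays. The Serpine2 arrays did not overlap but were parted by a narrow gap, and the difference of -0.41 ± 0.13 had an adjusted p of 0.0961. Serpine3 differed by 0.15 ± 0.0989. Serpini1, or neuroserpin, an inhibitor of tissue plasminogen activator, and Serpini2 differed by 0.08 ± 0.11 and 0.13 ± 0.161.

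Genes of the list for plasminogen activation and fibrinolysis went both ways. Of 17 measured genes 3 were higher and 8 were lower, with a median log2 difference of -0.26. That was 64.7% called, beside 14.9% of all genes. Plaur, the urokinase receptor, was higher by 1.04 ± 0.171 (limma adjusted p = 0.0127), reading 12.21, 12.21 and 11.79 in basal and 10.75, 11.21 and 11.14 in non-basal arrays. Plau, the urokinase gene itself, read between 11.06 and 11.52 in all 6 arrays and differed by 0.03 ± 0.137 (adjusted p = 0.914), with -0.03 after quantile normalization. Plat, tissue plasminogen activator, was lower at -1.07 ± 0.175 (adjusted p = 0.0124). The 4 genes of smallest p were Vtn, vitronectin, at -2.33 ± 0.218, Tfpi2, a Kunitz inhibitor, at -3.59 ± 0.39, Lrp1, the receptor that clears serpin-protease complexes, at -1.95 ± 0.22, and Tfpi, a clotting inhibitor placed in this list, at -0.98 ± 0.114. These 4 calls held whichever 1 array was left out. The calls of Plaur were lost without basal array 1, basal array 2 or non-basal array 3 (adjusted p of up to 0.0684), and those of Plat without these or non-basal array 2 (up to 0.0679). Without basal array 1, basal array 2 or non-basal array 3, 0 genes of this list were higher. The mean deviation of the 17 genes was -0.471, -0.428 and -0.298 in basal and 0.162, 0.544 and 0.491 in non-basal arrays. That of the fibroblast markers was -2.58, -2.11 and -0.866 against 1.26, 2.23 and 2.07, that of smooth muscle and pericyte markers -1.21, -1.12 and -0.498 against 0.827, 1.03 and 0.975, and that of endothelial markers -0.812, -0.914 and -0.512 against 0.839, 0.663 and 0.736. Their part in the list's differences was not tested.

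In the clotting list 2 of 18 genes were higher and 3 were lower, with a median of -0.10. That was 27.8% called, beside 14.9% of all genes. F3, tissue factor, was higher by 1.78 ± 0.257 (limma adjusted p = 0.00844, and 0.0531 without basal array 2). F2rl1, a protease-activated receptor cleaved by trypsin-like enzymes, was higher by 1.64 ± 0.215. F2r, the thrombin receptor, was lower at -0.96 ± 0.061 and Pros1, protein S, at -0.78 ± 0.129. The Pros1 call was lost without basal array 1, basal array 2 or non-basal array 3 (adjusted p of up to 0.0705). F2rl2, another protease-activated receptor, was lower at -1.22 ± 0.243 (adjusted p = 0.0237), and of the fits with 1 array left out only that without non-basal array 1 kept this call (adjusted p of up to 0.107). Without basal array 1, basal array 2 or non-basal array 3, 1 gene of the list was lower.

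Among the 3 lists of leukocyte granule, lysosomal and epithelial proteases, the genes called over all 6 arrays were lower in the basal fraction. They made up 33.3% of the granule list, 44.4% of the lysosomal list and 5% of the epithelial list, beside 14.9% of all genes called. Of 12 genes of leukocyte granules and apoptosis 4 were lower, Prf1 (perforin) at -3.33 ± 0.303, Gzma at -3.03 ± 0.379, Gzmk at -1.74 ± 0.307 and Gzmb as above. Of these 12 genes 4 also stand in a marker list. The Gzmk call was lost without basal array 1, basal array 2, non-basal array 2 or non-basal array 3 (limma adjusted p of up to 0.0812), and without any 1 of these arrays 2 genes of the list were lower. Of 9 lysosomal proteases 4 were lower, Ctsh at -1.02 ± 0.08, Ctsf at -1.23 ± 0.11, Ctsk at -2.43 ± 0.458 and Ctss at -0.73 ± 0.144. The Ctsk call was lost without basal array 1, basal array 2, non-basal array 2 or non-basal array 3 (adjusted p of up to 0.0976). That of Ctss was lost without basal array 1, basal array 3, non-basal array 2 or non-basal array 3 (up to 0.102). Only 2 lysosomal genes were lower without basal array 1, non-basal array 2 or non-basal array 3. Of 20 genes of the epithelial membrane and kallikrein list 0 were higher and 1, Htra1, was lower at -1.60 ± 0.318 (adjusted p = 0.0237). Htra1 is a secreted protease and no kallikrein, so no membrane protease or kallikrein of the list was called over all 6 arrays. Of the fits with 1 array left out, only that without non-basal array 1 kept Htra1 (adjusted p of up to 0.106). In that same fit 3 genes of the list were higher, the membrane proteases St14 (adjusted p = 0.00682), Prss8 (0.0177) and Tmprss2 (0.035), which differed by 0.43, 0.25 and 0.12 over all 6 arrays. Klk8, Klk10 and Klk1 came next at 0.27 ± 0.0964, -0.40 ± 0.146 and -0.25 ± 0.111, none of them called. By summed level, the leukocyte granule and lysosomal lists had the same order of arrays as the fibroblast and the T and NK cell markers. Prf1 and Gzma stand in both the leukocyte granule and the T and NK cell list. The epithelial list had another order, at 139.77, 139.08 and 138.36 in basal and 141.28, 139.62 and 140.91 in non-basal arrays. The part of these cell types in the 3 lists was not tested.

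**Figure D5:**
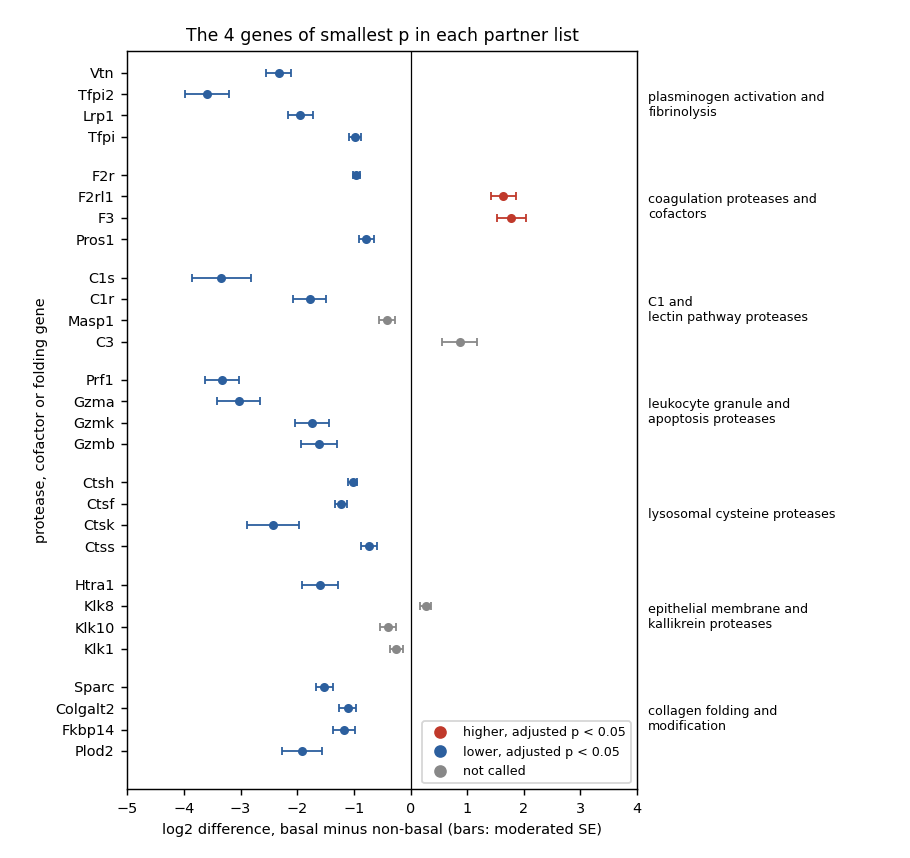
Log2 difference, basal minus non-basal (horizontal axis), of the 4 genes of smallest p in each of 7 lists of proteases, cofactors and folding genes; bars are moderated standard errors. F2rl1 and F3 lie to the right of 0, and most other genes shown lie to the left.

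Serpinh1 encodes HSP47, the collagen chaperone of the endoplasmic reticulum and a serpin that inhibits no protease. The log2 values of Serpinh1 were 10.83, 10.80 and 10.58 in basal and 10.88, 11.47 and 11.36 in non-basal arrays. The fractions did not overlap, but non-basal array 1 lay close to the basal arrays. The difference was -0.50 ± 0.17 (SE; limma adjusted p = 0.113), and without non-basal array 1 it was -0.68 (adjusted p = 0.0154). Of 18 other genes of collagen folding and modification 7 were lower and 0 were higher. These genes had 38.9% called, beside 14.9% of all genes, and a median of -0.50. Their mean deviation was -0.326, -0.321 and -0.238 in basal and 0.117, 0.435 and 0.334 in non-basal arrays, beside the fibroblast deviations given with the plasminogen genes, whose part was not tested. Among the lower genes were Sparc, a collagen-binding protein, at -1.52 ± 0.155, the collagen galactosyltransferase gene Colgalt2 at -1.11 ± 0.153, the prolyl isomerase gene Fkbp14 at -1.18 ± 0.193 and the lysyl hydroxylase gene Plod2 at -1.92 ± 0.35. Between 2 and 9 genes of the list were lower with 1 array left out, the lowest count without basal array 2, non-basal array 2 or non-basal array 3 and with 3 without basal array 1. The Fkbp14 call was lost without basal array 1, basal array 2, non-basal array 2 or non-basal array 3 (adjusted p of up to 0.0706). That of Plod2 was lost without basal array 2, non-basal array 2 or non-basal array 3 (up to 0.0862).

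Many serpins gave weak signals. In 30 of the 46 members the mean was under 7 in both fractions, and in 10 of these it was under 5. Of the 30 members 1, Serpina3c, was called. The arrays carry no detection call in these values, so such a member cannot be said to be present or absent.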

How the data were processed

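Total RNA of 3 basal and 3 non-basal arrays was measured. The authors deposited log2 expression values from RMA, which corrects background, matches array distributions and summarises probe sets; per the submitters' processing notes the tool was Affymetrix Expression Console. Software version, library file and genome build are not given in the sources used here. Because of the matching, a shift shared by most genes would be removed, and differences of dim probe sets are compressed. Array medians were 6.629 to 6.703, and the number of arrays limits the precision.

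Of 36685 probe sets, 18511 had 1 gene symbol. The probe set with the highest mean represented each gene. Differences were fitted with limma 3.58.1 (lmFit, eBayes; R 4.3.3) over all 18166 genes, two-sided, with Benjamini-Hochberg adjustment and a threshold of 0.05. The fitting script was tested on simulated data. All 46 members were found by Entrez identifier in the RefSeq table of GRCr8, used for names and gene order. Cluster neighbours were at most 20 genes apart.

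Members, partner and marker lists, and the naming rule were chosen with earlier results of these data known. Array values were given for every called member, the 3 members not called with the largest differences and sole members of a clade. From each partner list the 4 genes of smallest p were named. The array values of Serpina16, Serpina3n, Serpinb1b, Serpinb2, Serpinb6a, Serpine2, Serpinf2, C1s, Plaur and Plau, and the naming of Plaur, Plau, Plat, S100a9, Klkb1, F2rl2, St14, Prss8 and Tmprss2, were added after their values were seen. The naming of Kit, Tpsb2, Hdc and Cpa3 was also added then. Alternatives were a replicate block, other scalings, dim filters at 5 and 7, variance settings, array weights, probe set choices, thresholds and left-out arrays.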

Additional observations from a re-analysis of the deposited data

How the results depend on the processing

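Serpinb5 and Serpinb9 were called in all 11 other fits and all 6 without 1 array at a threshold of 0.05, and Serpinb1a, Serpinf1 and Serping1 lost their calls only with 1 array left out. No paired structure was found: same-numbered arrays deviated from their fraction means with correlations of 0.0312, 0.0383 and 0.0278, though each array correlated best with its own number, a hint from the data and not from the design. With the replicate number as a block, 2 members were higher and 3 lower, Serpina1fl2 and Serpina3c being lost. The number of members lower, 5, was 8 after quantile normalization or median centring, 11 with array weights, 2 at an adjusted p under 0.01, 9 at 0.10 and 2 at 2-fold and above. With 1 array left out, the counts ran from 1 to 3 higher and from 1 to 7 lower. Without basal replicate 3 and non-basal replicate 1 together, 4 were higher and 10 lower. Over all genes, 1401 were higher and 1297 lower, against 2868 and 2323 with array weights, 2499 and 2124 without those 2 arrays, 491 and 556 at 0.01, and 415 and 645 at 2-fold. With 1 array left out these were 509 to 2068 and 542 to 1607. The cause was not tested.

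No called member changed sign. Among the members not called and Plau, these signs turned, while Serpina7, at 0.00, ran from -0.05 to 0.04 with 1 array left out. After quantile normalization the differences were -0.06 for Serpina10 and Serpina6, -0.04 for Serpina3m, -0.02 for Serpinb12 and Serpinb6el1, -0.01 for Serpinb13 and -0.03 for Plau. With array weights they were -0.03 for Serpina10 and Serpina6, 0.03 for Serpinb11 and Serpinb6e, 0.14 for Serpinb1b, -0.21 for Serpinb2 and 0.01 for Serpinb9d. Without basal replicate 3 and non-basal replicate 1 together they were -0.04 for Serpina10, -0.06 for Serpina6, 0.06 for Serpinb11, 0.28 for Serpinb1b, -0.45 for Serpinb2, 0.05 for Serpinb6e, -0.02 for Serpinb6el1, 0.08 for Serpinb9d, 0.02 for Serpind1 and -0.01 for Plau. With 1 array left out the ranges were -0.09 to 0.12 for Serpina10, -0.03 to 0.08 for Serpina3m, -0.02 to 0.07 for Serpina6, -0.12 to 0.06 for Serpinb11, -0.31 to 0.33 for Serpinb1b, -0.28 to 0.49 for Serpinb2, -0.10 to 0.03 for Serpinb6e, -0.03 to 0.18 for Serpinb6el1, -0.22 to 0.13 for Serpinb9d, -0.71 to 0.27 for Serpinf2, -0.04 to 0.14 for Serpini1, -0.02 to 0.26 for Serpini2 and -0.09 to 0.14 for Plau. Dim filters at 5 and 7 left 36 and 16 members.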

Other observations

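Deposited values repeated exactly between arrays for some serpins. Of the 46 members 12 held the same value on at least 3 of the 6 arrays, or 26.1%, beside 16.1% of all genes. Serpina12 held 1 value on 5 arrays, and Serpina9 and Serpinb11 on 4 arrays. Serpinc1 was among 42 genes with the same value on all 6 arrays. For such genes the spread between arrays is not measured, and a difference near 0 says little about the fractions.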
